A study of Mus musculus with 2 samples.

Results

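Interferon response genes were followed across the cell types of the anterior eye segment in mice lacking Foxc2 in the neural crest lineage and in control mice. The set was a list of 34 gene names chosen as known interferon targets, and 33 of the 34 had a row among the 32285 genes counted. Mx1 was listed and not analysed here. By role, 6 were transcription factors or sensors (Stat2, Irf9, Irf1, Irf7, Irf8 and Ifih1), and 16 measured genes were effectors of the type I response. Another 8 were immunity GTPases (Gbp2, Gbp3, Gbp4, Gbp5, Gbp7, Iigp1, Igtp and Irgm1) and 3 served antigen processing (Psmb8, Psmb9 and Tap1).

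NC-Foxc2-/- mice (Wnt1-Cre; Foxc2fl/fl) and control mice (Foxc2fl/fl) were compared by droplet single-cell RNA sequencing, with 1 library per condition. Each library came from anterior segments pooled from 4 to 6 mice of mixed background, given as 4 weeks old in the sample labels and as 3 to 4 weeks old in the study's methods, with the iris removed. Both groups carried the floxed Foxc2 alleles, and Wnt1-Cre acts in neural crest descendants, so endothelial, blood and surface epithelial cells are outside its main target. With 1 library per condition no difference was tested, and a genotype effect and a library effect cannot be told apart. All intervals are exact 95% intervals that cover counting error only.

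Interferons are secreted proteins that signal infection or damage. Type I interferons act through the receptor chains Ifnar1 and Ifnar2 and a complex that holds Stat2 and Irf9 and binds a DNA element called the ISRE. Interferon gamma acts through Ifngr1 and Ifngr2 on genes with the GAS element, and Irf1 then carries the signal to further genes. The trabecular meshwork (TM) and Schlemm's canal (SC) drain aqueous humor, and their cells can respond to interferon as nearly all nucleated cells can.

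The promoters of the genes on which the results turn are shown for an element they share. All of the GTPase genes and part of the type I effector genes that were read held it in a promoter. A RefSeq promoter was read for 27 of the 34 genes (build GRCm38.p6, 250 bases before to 50 bases after the start). The ISRE core was searched on both strands as GAAA, then 2 bases of any kind, then GAAA, and the GAS element as TTCNNNGAA. Some genes had several promoters, and a gene was counted when any of them held a match. An ISRE core was found for 15 of the 27 genes (55.6%), against 3.99% of 27025 genes with promoters of the same length. It was found for 6 of 6 GTPase genes, 7 of 12 type I effector genes, 2 of 6 factor and sensor genes and 0 of 3 antigen processing genes. A GAS element was found for 9 of 27 (33.3%), against 9.55% of all genes. A match is a description of the letters and not a measured binding site.

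The 160 bases before the RefSeq start, which for Ifit1, Irgm1 and Gbp2 lies inside the GENCODE gene, are printed 5′ to 3′ on the strand of the gene, with ISRE cores in capitals, either as such or as their reverse complement. Isg15 was read at chr4:156200819-156200978 on the minus strand, Ifit1 at chr19:34640729-34640888 and Ifit3 at chr19:34583369-34583528, both on the plus strand. Rsad2 was read at chr12:26456453-26456612 and Irgm1 at chr11:48871421-48871580, both on the minus strand, and Gbp2 at chr3:142620503-142620662 on the plus strand. Irf1, at chr11:53769854-53770013 on the plus strand, held no ISRE core in its window, and its capitals mark a GAS element.
Isg15: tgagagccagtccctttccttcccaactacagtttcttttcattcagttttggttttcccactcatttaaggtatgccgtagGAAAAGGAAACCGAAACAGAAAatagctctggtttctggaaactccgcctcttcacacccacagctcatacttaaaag
Ifit1: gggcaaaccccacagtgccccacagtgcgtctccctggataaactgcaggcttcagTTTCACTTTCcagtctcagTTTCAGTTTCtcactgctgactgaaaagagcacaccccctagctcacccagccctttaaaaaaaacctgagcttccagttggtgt
Ifit3: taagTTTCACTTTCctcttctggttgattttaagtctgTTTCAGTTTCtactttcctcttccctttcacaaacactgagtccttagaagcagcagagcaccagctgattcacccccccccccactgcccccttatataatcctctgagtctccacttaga
Rsad2: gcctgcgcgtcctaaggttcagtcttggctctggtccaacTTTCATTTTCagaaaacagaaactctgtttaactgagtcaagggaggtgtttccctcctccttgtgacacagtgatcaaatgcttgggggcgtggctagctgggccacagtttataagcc
Irgm1: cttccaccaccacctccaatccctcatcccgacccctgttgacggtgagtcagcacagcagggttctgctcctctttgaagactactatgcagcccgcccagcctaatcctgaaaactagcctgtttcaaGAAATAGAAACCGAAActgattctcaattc
Gbp2: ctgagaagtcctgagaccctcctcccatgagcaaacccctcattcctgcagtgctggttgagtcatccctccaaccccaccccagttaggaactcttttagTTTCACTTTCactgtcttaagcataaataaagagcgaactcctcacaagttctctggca
Irf1: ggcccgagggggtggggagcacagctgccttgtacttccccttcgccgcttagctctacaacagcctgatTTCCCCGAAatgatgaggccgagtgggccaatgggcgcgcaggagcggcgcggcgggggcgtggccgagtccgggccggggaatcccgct
The 3 ISRE cores of Isg15 overlapped and began 78, 72 and 66 bases before its start. Those of Ifit1 began 104 and 85 bases before the start, those of Irgm1 30 and 24 bases, and the single cores of Rsad2 and Gbp2 120 and 59 bases. Ifit3 had cores 156 and 122 bases before its start.

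After a filter on mitochondrial reads, 10872 NC-Foxc2-/- cells (median of 6517 UMIs) and 10773 control cells (median of 7663 UMIs) remained, and the libraries shared 52 cell barcodes. Names for TM-1, TM-2, TM-3, the uveal meshwork, fibroblasts and the endothelial subclusters followed the study's own cluster lists, of which 98.5 to 100% of cells were matched. The other classes were rebuilt and named "-like" from their markers, and differences from the study may come from these rebuilt names. The 11 macrophage markers, for example, summed to 18452 CPM in NC-Foxc2-/- and 24472 CPM in control macrophage-like cells, and to 28.7 and 45.9 CPM in TM-1 (CPM, the UMIs of a gene per 1000000 UMIs of the class). In all, 17 classes had at least 50 cells in both libraries. Foxc2 was lower in the NC-Foxc2-/- library in TM-1 (8.76 against 39.4 CPM), the uveal meshwork (13 against 68.6 CPM) and the pericyte-like class (2.48 against 132 CPM). It was also lower in endothelial cells (4.64 against 25.2 CPM), which Wnt1-Cre does not target, and higher in the keratocyte-like class (9.94 against 4.16 CPM). Whether the counted 3′ reads fall within the deleted part of Foxc2 was not examined.

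The interferon response genes were highest mainly in TM-2, a class of the trabecular meshwork, and in endothelial cells. Summed over both libraries, TM-2 was the highest of the 17 classes for 14 genes: Isg15, Ifit1, Ifit2, Ifit3, Ifit3b, Ifi35, Oasl2, Usp18, Rtp4, Ifih1, Irf7, Irf9, Stat2 and Irgm1. It was the highest for these 14 in each library as well. Endothelial cells were the highest for 11: Rsad2, Ifi44, Parp14, Trim30a, Gbp2, Gbp3, Gbp4, Gbp5, Iigp1, Igtp and Tap1. In the NC-Foxc2-/- library they led for all 11, and in the control library for 7, with TM-2 above them for Gbp2, Igtp and Tap1 and pericyte-like cells for Iigp1. The 11 also became 7 without 22 NC-Foxc2-/- endothelial cells described further on. Macrophage-like cells led for the immunoproteasome subunits Psmb8, though not in the control library, and Psmb9, and Schwann cell-like cells for Gbp7 and Xaf1. Irf8, a factor of blood cell lineages, was highest in the NK/T/B cell-like class. Irf1 was highest in TM-1, Bst2 in the melanocyte-like class and Ifi27 in the uveal meshwork over both libraries and in the control library, but not in the NC-Foxc2-/- library. Erythrocyte-like cells, which carry little besides globin RNA, were at the bottom for most of the genes.

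**Figure D1:**
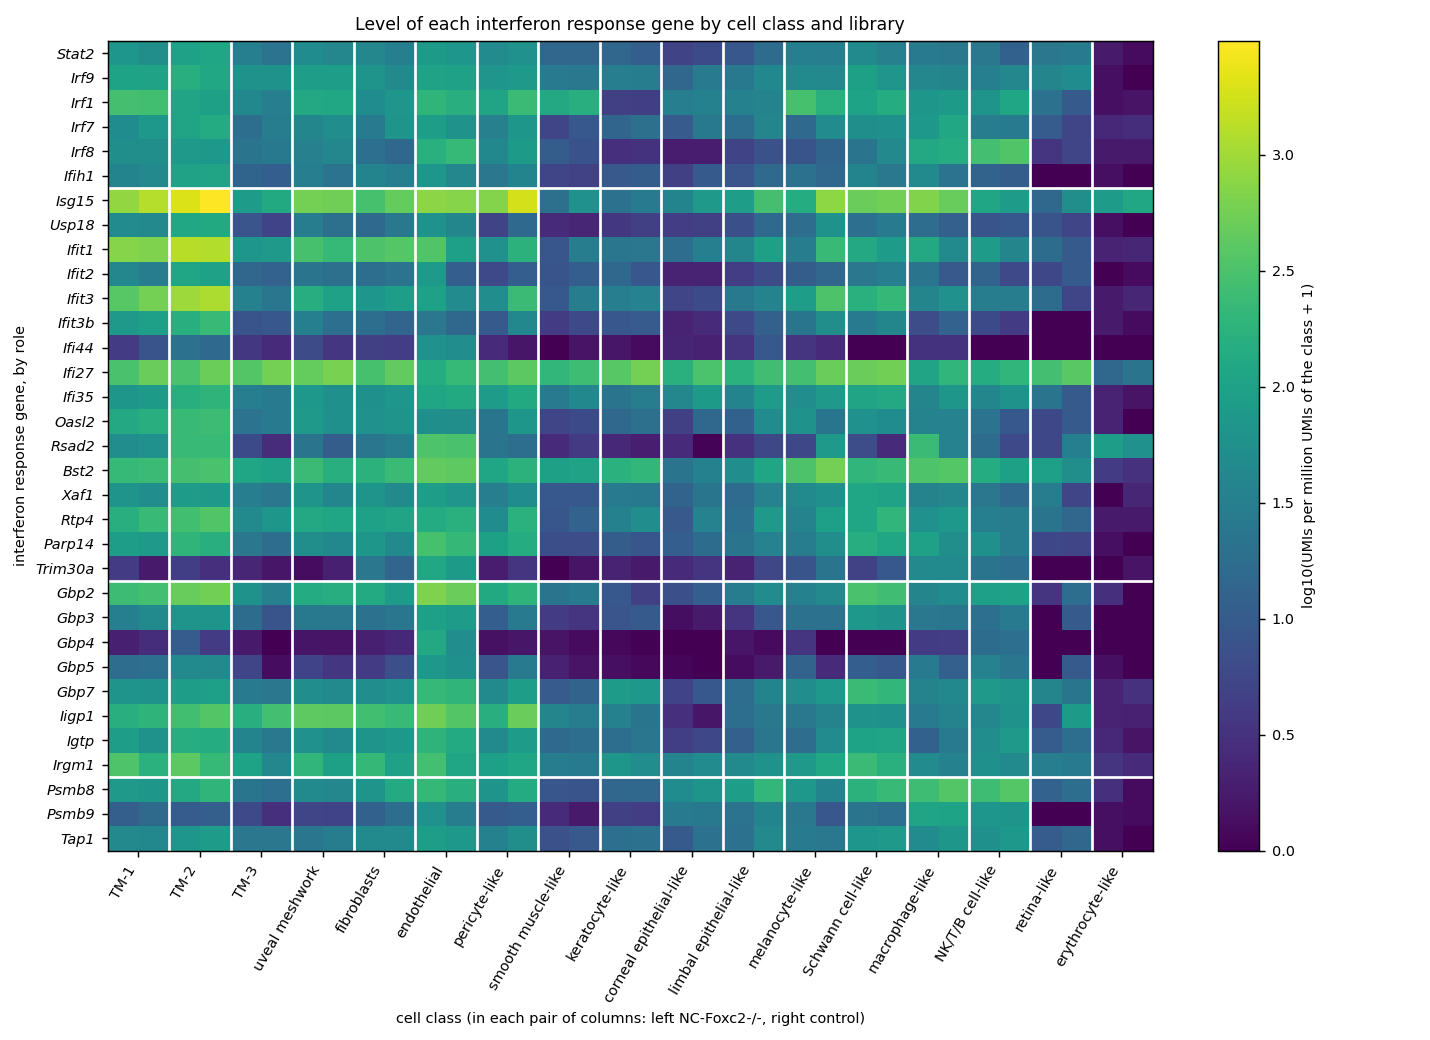
Level of 33 interferon response genes in 17 classes, as log10 of CPM + 1. Each class has a pair of columns, NC-Foxc2-/- on the left and control on the right. Isg15 in TM-2 (2055 and 3104 CPM) and Ifit1 in TM-2 (1299 and 1234 CPM) are among the highest values of both libraries. The keratocyte-like columns are low for Isg15 (19.4 and 26.9 CPM).

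Isg15, a ubiquitin-like protein attached to other proteins during the response, spanned a wide range. It stood at 2055 CPM in NC-Foxc2-/- TM-2 and 3104 CPM in control TM-2, and at 19.4 CPM in NC-Foxc2-/- and 26.9 CPM in control keratocyte-like cells. Over both libraries TM-2 (2532 CPM) was followed by the pericyte-like class (1153 CPM) and TM-1 (1093 CPM). The order of this pair differed between libraries, with TM-1 above the pericyte-like class in the NC-Foxc2-/- library (849 and 694 CPM) and below it in the control library (1281 and 1840 CPM). After each cell was thinned to 1000 UMIs, an Isg15 UMI was found in 63.8% of NC-Foxc2-/- and 74.1% of control TM-2 cells (unthinned 85.6 and 90.5%). The same shares were 1.03 and 2.39% in keratocyte-like cells (unthinned 8.58 and 11.9%). Erythrocyte-like cells, taken as a floor, gave 4.78% in the NC-Foxc2-/- library and 6.15% in the control library after thinning. Isg15 was uneven in these cells too, where the top 1% held 32.7% of its UMIs in the NC-Foxc2-/- and 34.5% in the control library, against medians of 18.4 and 16.3% over all genes. The keratocyte-like shares were no higher and were not read as expression across the class, although a few keratocyte-like cells held many Isg15 UMIs, as given further on. Thinning also removes more UMIs from a deeper cell. Class median depths were 4116 and 4719 UMIs in TM-2, 14495 and 15900 in keratocyte-like cells and 4085 and 4013 in erythrocyte-like cells (NC-Foxc2-/- and control).

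Ifit1, which binds viral RNA, had 1299 CPM in NC-Foxc2-/- and 1234 CPM in control TM-2, followed by TM-1 with 721 and 647 CPM. Its neighbor Ifit3 had 970 CPM in NC-Foxc2-/- TM-2 and 1166 CPM in control TM-2. Ifit3 and Ifit3b are near-identical copies, so the split of their counts is uncertain. Rsad2 (viperin), an enzyme that makes a chain-terminating nucleotide, followed another order, with 342 and 309 CPM in NC-Foxc2-/- and control endothelial cells and 223 and 231 CPM in TM-2. Gbp2, a guanylate-binding GTPase of the gamma response, had 651 CPM in NC-Foxc2-/- and 490 CPM in control endothelial cells and 480 and 559 CPM in TM-2. Iigp1, which acts on parasite vacuoles, was high in endothelial cells (537 and 365 CPM) and in the uveal meshwork (416 and 406 CPM). Of the upstream factors, Irf1 had 286 CPM in NC-Foxc2-/- and 275 CPM in control TM-1, below the 300 CPM of melanocyte-like cells in the NC-Foxc2-/- library, and was far lower in TM-2 (108 and 95 CPM).

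The study named TM-1 and TM-2 as trabecular meshwork clusters and related them to beam cells with reserve. It clustered these same cells on highly variable genes, so the contrast between them is a description. In the NC-Foxc2-/- library 12 of 29 interferon response genes with 50 UMIs were at least 2-fold higher in TM-2 than in TM-1, against 1.92% of all genes. In the control library 14 of 30 were, against 1.88% of all genes. The median TM-2 over TM-1 ratio was 1.8 in the NC-Foxc2-/- and 1.97 in the control library. Rsad2 had the ratios 4.47 and 3.97, Usp18, which shuts off type I receptor signaling, 2.6 and 3.07, and Isg15 2.42 in both libraries. Irf1 ran the other way, with 0.378 in the NC-Foxc2-/- and 0.345 in the control library, and Ifi27 was level (0.983 and 1.03). When cells were clustered again without the interferon genes, 97.5% of TM-1 and 98% of TM-2 cells fell into the same cluster, and with those genes 99 and 99.8% did. The rebuilt clusters thus did not separate TM-2 from TM-1, and these names rest on the study's lists. The median TM-2 over TM-1 ratio was of like size in both libraries.

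Between conditions, a gene was called in a class when its CPM ratio, NC-Foxc2-/- over control, reached 2 or stood at 0.5 or below. A minimum of 50 UMIs, summed over both libraries, was required. Of 561 gene and class pairs, 410 had 50 UMIs. Among these 19 were called higher and 53 lower in the NC-Foxc2-/- library. Of all genes, 1.17 to 11.5% were called higher and 1.25 to 9.99% lower, depending on the class. The direction varied with the class. Most higher calls lay in endothelial and macrophage-like cells and in Irgm1, and most lower calls in limbal epithelial-like, pericyte-like and melanocyte-like cells.

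**Figure D2:**
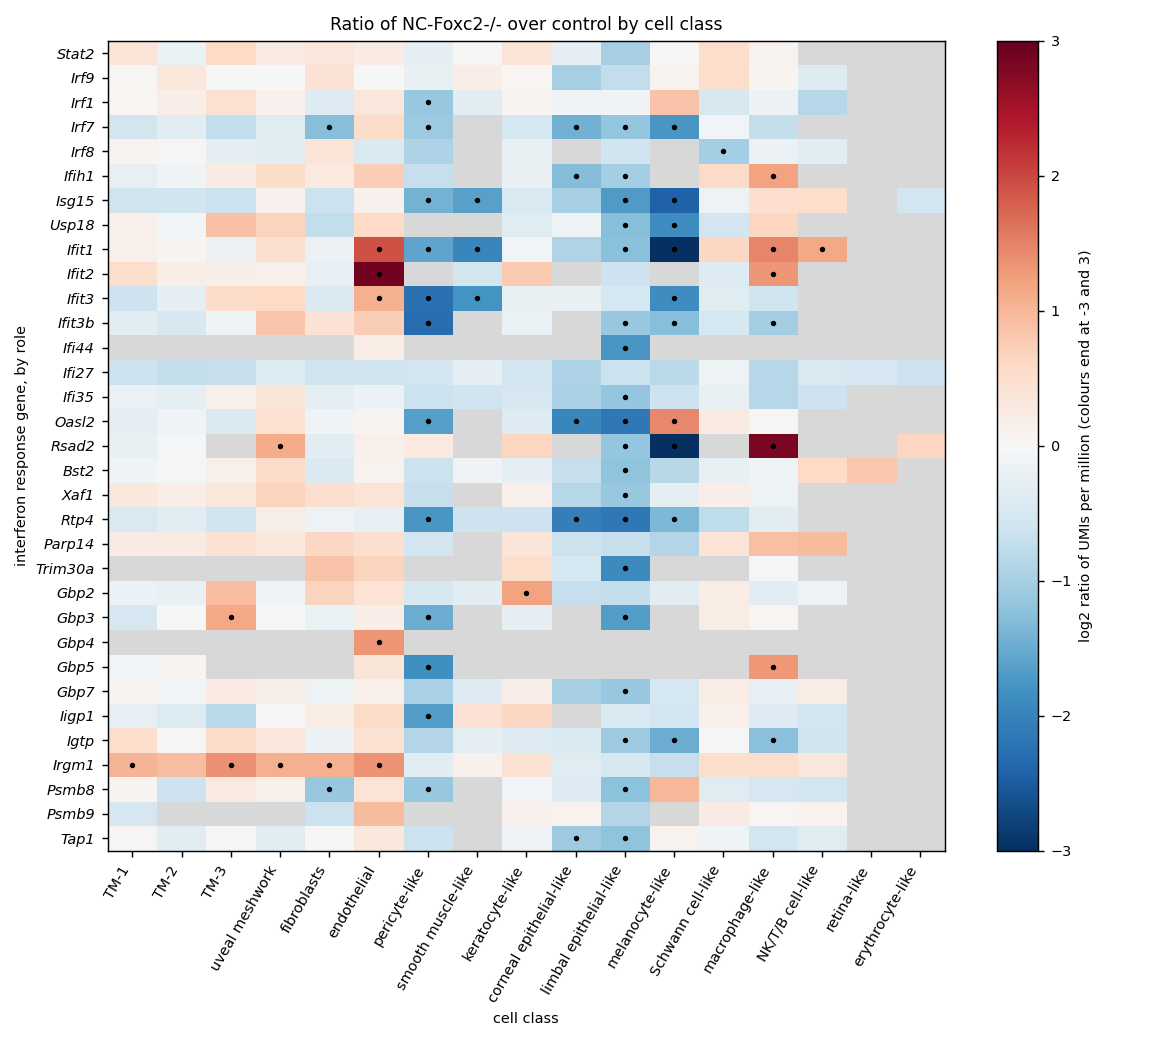
Log2 CPM ratio of NC-Foxc2-/- over control for 33 genes in 17 classes, with dots on the 72 called pairs and grey where fewer than 50 UMIs were counted. Dots cluster in the limbal epithelial-like (19 of 31 lower), pericyte-like (12 of 27 lower) and melanocyte-like (9 of 24 lower) columns. Of all genes 6.54, 3.72 and 9.99% were called lower there. The endothelial column holds 5 of 33 called higher, against 3.09% of all genes.

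In the trabecular meshwork itself few interferon response genes were called. TM-1 had 1 of 30 called higher (3.33%) and 0 lower, against 2.24 and 1.70% of all genes called higher and lower. TM-2 had 0 of 29 in either direction, against 2.77 and 1.88%. TM-3, putatively juxtacanalicular in the study, had 2 of 27 higher (Gbp3 and Irgm1, 7.41%) and 0 lower, against 3.64 and 2.29%. The uveal meshwork had 2 of 28 higher (Rsad2 and Irgm1, 7.14%) and 0 lower, against 2.06 and 1.49%. Each of these shares rested on at most 2 genes.

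In these meshwork classes the levels of most type I effectors differed by less than the fold rule. Isg15 was 849 CPM in NC-Foxc2-/- and 1281 CPM in control TM-1, and the ratio of 0.662 was the same in TM-2. In the uveal meshwork it was 586 CPM in NC-Foxc2-/- and 537 CPM in control cells (ratio 1.09), and there 22 of 28 genes had a ratio above 1. In TM-3 Iigp1 had 157 CPM in NC-Foxc2-/- and 276 CPM in control cells (ratio 0.567), while Gbp2 had 61.2 and 32.4 CPM (ratio 1.89) and Gbp3 16 and 7.19 CPM (ratio 2.22). The GTPases thus differed in direction within this class. Rsad2 in the uveal meshwork had 21.1 CPM in NC-Foxc2-/- and 9.78 CPM in control cells (ratio 2.16). Few cells held most of its UMIs in both libraries, 64.4% in 6 NC-Foxc2-/- cells and 79.3% in 11 control cells.

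Irgm1 was the exception that ran through the meshwork and its neighbors. It encodes a GTPase that regulates the other immunity GTPases and autophagy, and its promoter carries a pair of overlapping ISRE cores. Irgm1 stood at 340 CPM in NC-Foxc2-/- and 168 CPM in control TM-1, a ratio of 2.03 (1.83 to 2.24). TM-3 had 104 CPM in NC-Foxc2-/- and 40.3 CPM in control cells, a ratio of 2.59 (2.24 to 2.99). The uveal meshwork had 198 and 94.7 CPM, a ratio of 2.09 (1.87 to 2.34), and fibroblasts 209 and 99 CPM, a ratio of 2.11 (1.87 to 2.39). All 4 ratios passed the fold rule, and TM-2, with 409 CPM in NC-Foxc2-/- and 216 CPM in control cells (ratio 1.9), narrowly missed it.

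Endothelial cells had 282 CPM of Irgm1 in the NC-Foxc2-/- and 111 CPM in the control library, a ratio of 2.54 (2.18 to 2.98). The Irgm1 ratio was above 1 in 11 of the 15 classes with 50 UMIs. It was smaller in Schwann cell-like (236 and 163 CPM, ratio 1.44) and keratocyte-like cells (69 and 50 CPM, ratio 1.38). It was below 1 in pericyte-like cells (92.1 CPM in NC-Foxc2-/- and 115 CPM in control cells, ratio 0.801) and in melanocyte-like cells (74.3 and 119 CPM, ratio 0.622). After thinning to 1000 UMIs an Irgm1 UMI was found in 27.7% of NC-Foxc2-/- and 14% of control TM-1 cells (unthinned 66.5 and 51.2%). In TM-2 the thinned shares were 31.9 and 16.4%, in TM-3 8.87 and 3.68%, and in erythrocyte-like cells 0.341 and 0.112%. The difference was spread over many cells, since the top 1% of TM-1 cells held 6.69% of Irgm1 UMIs in the NC-Foxc2-/- and 8.84% in the control library.

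**Figure D3:**
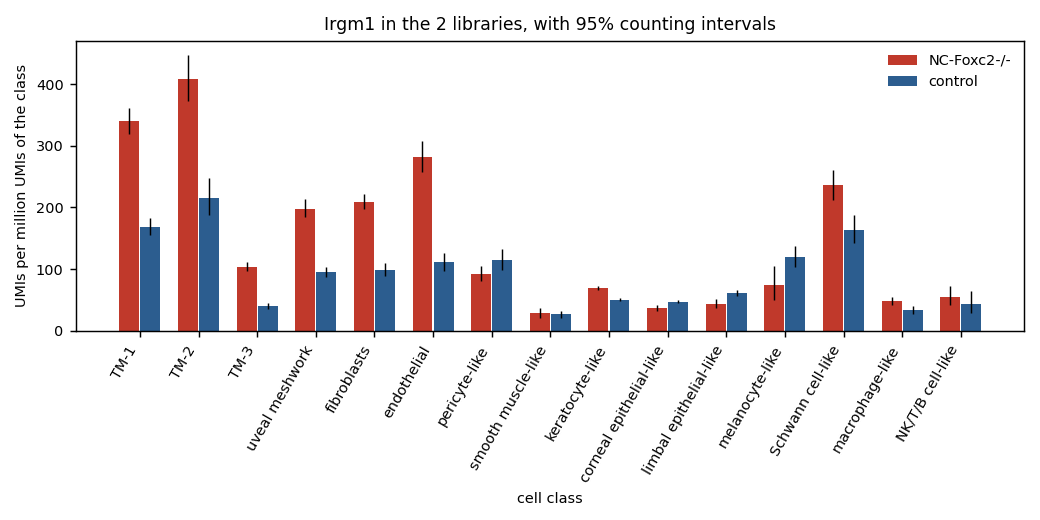
Irgm1 level in CPM in the 15 classes with at least 50 UMIs, NC-Foxc2-/- bars left of control bars, with exact 95% counting intervals and 1 library per bar. In TM-1 (340 and 168 CPM), TM-3 (104 and 40.3 CPM) and endothelial cells (282 and 111 CPM) the intervals of the 2 libraries do not meet, and in pericyte-like cells the order is turned (92.1 and 115 CPM).

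Fibroblasts had 1 of 30 genes called higher (Irgm1, 3.33%) and 2 lower (Irf7 and Psmb8, 6.67%), against 4.84 and 6.09% of all genes. Irf7, a master factor of type I induction, had 26 CPM in NC-Foxc2-/- and 63.2 CPM in control fibroblasts (ratio 0.411). Psmb8, which replaces the constitutive subunit Psmb5 in the immunoproteasome, had 62.2 CPM in NC-Foxc2-/- and 136 CPM in control fibroblasts (ratio 0.457). Psmb5 itself had 86.2 and 173 CPM (ratio 0.497), Psmb6 115 and 207 CPM and Psmb7 70.4 and 60.8 CPM, while Psmb10 had 29 and 73.2 CPM (ratio 0.396). Immune and constitutive subunits were therefore lower together, apart from Psmb7.

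Endothelial cells, which sit outside the Wnt1-Cre lineage, had 5 of 33 genes called higher (15.2%) and 0 lower, against 3.09 and 4.03% of all genes, and 29 of 33 ratios above 1. The median log2 ratio was 0.40 for these genes and -0.08 for all genes. The mix of subclusters differed, with 23 of 253 NC-Foxc2-/- and 84 of 207 control cells from Schlemm's canal and lymphatic vessels. Its part in the result was not tested. Ifit2 had 73.7 CPM in NC-Foxc2-/- and 9.91 CPM in control endothelial cells, a ratio of 7.43 (4.7 to 12.3). Ifit1 had 353 and 93.3 CPM, a ratio of 3.78 (3.22 to 4.45), and Ifit3 97.4 and 46.9 CPM (ratio 2.08). Gbp4 had 126 CPM in NC-Foxc2-/- and 50 CPM in control cells (ratio 2.52), though it overlaps Gbp8 and Gbp9 on the same strand, which makes its counts uncertain. Irgm1 was the other called gene. Psmb9 came close, with 56.8 CPM in NC-Foxc2-/- and 29.3 CPM in control cells (ratio 1.94).

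A small group of cells held a large part of the UMIs of several of these genes. The study named 22 cells, all from the NC-Foxc2-/- library, "NC-Foxc2-/- ECs", and they made up 8.7% of NC-Foxc2-/- endothelial cells and 7.57% of their UMIs. They held 84.3% of the Ifit2, 62.7% of the Ifit1, 50% of the Ifit3, 44.7% of the Rsad2, 36.4% of the Gbp4 and 35.9% of the Isg15 UMIs of that endothelium. Irgm1 was the least concentrated of the called genes, with 22.6%, and Ifi27 had only 6.37% there. None of the 22 cells was called a doublet, and their median was 4618 UMIs, against 5452 UMIs for all NC-Foxc2-/- endothelial cells. The group was defined by clustering on these same cells, so its contrast with the rest is a description.

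Isg15 had 3670 CPM in the 22 cells, 536 CPM in the other 231 NC-Foxc2-/- endothelial cells and 711 CPM in the 207 control cells. Ifit1 had 2919, 142 and 93.3 CPM and Ifit2 820, 12.6 and 9.91 CPM in the same order. Gbp2 had 2773, 478 and 490 CPM, and Iigp1 2505, 376 and 365 CPM. Type I effectors and immunity GTPases were thus both high in these cells, and which interferon they answered was not tested. In all, 29 of 32 genes with 50 UMIs were at least 2-fold higher than in the other NC-Foxc2-/- endothelial cells (median ratio 4.3), against 7.16% of all genes (median ratio 0.903). The exceptions were Ifi27 (0.831), Psmb9 (1.7) and Irf1 (1.96). Isg15, Iigp1 and Parp14 each had a UMI in 22 of the 22 cells.

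Without the 22 cells 1 endothelial gene was still called higher, Irgm1, with 236 CPM in the other NC-Foxc2-/- and 111 CPM in control cells (ratio 2.13). Of the 32 genes 15 then had a ratio above 1 and 17 below, with a median ratio of 0.96. No cells were taken out of the control library, so a fall in most ratios was fixed by this choice. The Irgm1 difference was present in both kinds of endothelium. In the blood vessel subclusters BEC-1 to BEC-6 it had 217 CPM in NC-Foxc2-/- and 80.6 CPM in control cells (ratio 2.69). In Schlemm's canal and lymphatic cells it had 382 CPM in NC-Foxc2-/- and 160 CPM in control cells (ratio 2.38), from 23 and 84 cells.

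Other genes separated the endothelial subclusters. Gbp4 in Schlemm's canal and lymphatic cells had 317 CPM in NC-Foxc2-/- and 53.5 CPM in control cells (ratio 5.94), while Isg15 had 925 and 922 CPM. Rsad2 in BEC-1 to BEC-6 had 224 CPM in NC-Foxc2-/- and 481 CPM in control cells (ratio 0.466). Among BEC-1 to BEC-6 over both libraries, Rsad2 was highest in BEC-5 (812 CPM) and lowest in BEC-1 (44.1 CPM). It had 34.1 CPM in Schlemm's canal and lymphatic cells. BEC-5 held 14 NC-Foxc2-/- and 43 control cells, and the part of this mix in the ratio was not tested. Gbp2 was low in BEC-2 (31.2 CPM) and BEC-3 (40.1 CPM) and high in BEC-1 (706 CPM) and in Schlemm's canal and lymphatic cells (747 CPM).

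**Figure D4:**
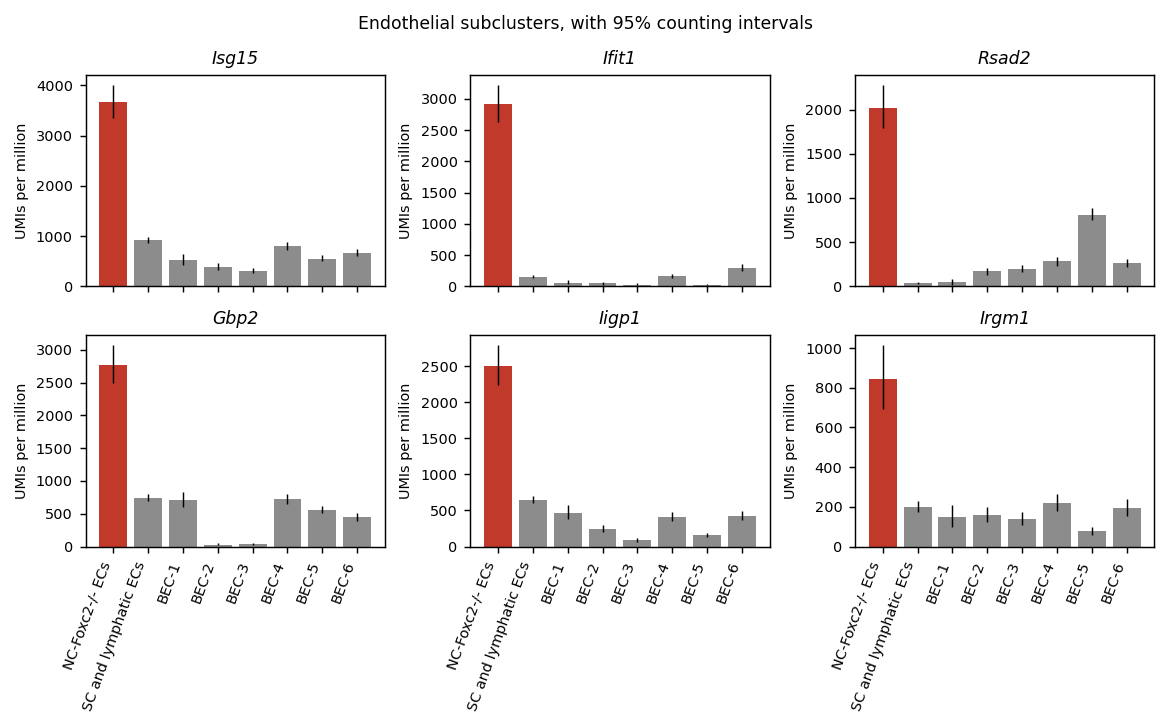
Level in CPM of 6 interferon response genes in the 8 endothelial subclusters over both libraries, with exact 95% counting intervals and the 22 cells named NC-Foxc2-/- ECs in red. The red bars lead for all 6 genes, with 3670 CPM of Isg15 and 2919 CPM of Ifit1, while Rsad2 is next highest in BEC-5 (812 CPM).

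Pericyte-like cells ran the opposite way, with 12 of 27 genes called lower (44.4%) and 0 higher, against 3.72% of all genes lower and 5.94% higher, and 26 of 27 ratios below 1. The median log2 ratio was -0.92 for these genes and 0.07 for all genes. Isg15 had 694 CPM in NC-Foxc2-/- and 1840 CPM in control pericyte-like cells, a ratio of 0.377 (0.355 to 0.401). Ifit3 had 50.4 and 237 CPM (ratio 0.212), Ifit3b 8.67 and 42 CPM (ratio 0.206) and Ifit1 58.2 and 176 CPM (ratio 0.332). Gbp5 (7.43 and 26.6 CPM, ratio 0.28) and Rtp4 (49.5 and 167 CPM, ratio 0.296) were lower to a like degree. Rtp4 overlaps Gm45338 on the same strand, so its counts are uncertain in this and the other classes.

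The lower calls in pericyte-like cells crossed the roles. Iigp1 had 157 CPM in NC-Foxc2-/- and 501 CPM in control cells (ratio 0.314), and Gbp3 9.91 and 27.8 CPM (ratio 0.356). Oasl2, a relative of the RNA-activated oligoadenylate synthetases, had 21.9 and 68.6 CPM (ratio 0.319). Irf1 had 108 and 237 CPM (ratio 0.456), Irf7 32.6 and 69.8 CPM (ratio 0.467) and Psmb8 62.8 and 138 CPM (ratio 0.453). Of the constitutive subunits, Psmb5 had 120 and 121 CPM, Psmb6 202 and 263 CPM and Psmb7 90 and 64.9 CPM, so the lower value was on the immune subunit. Rsad2 alone was above 1, with 21.1 CPM in NC-Foxc2-/- and 17.3 CPM in control cells.

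An Isg15 UMI was found in 32.5% of NC-Foxc2-/- and 54.3% of control pericyte-like cells at 1000 UMIs (unthinned 57.9 and 77%). The class differed in other ways as well. Its 6 erythrocyte markers summed to 6041 CPM in NC-Foxc2-/- and 21178 CPM in control cells, its 11 macrophage markers to 83.8 and 191 CPM, its 6 smooth muscle markers to 13967 and 9867 CPM and its 6 pericyte markers to 5514 and 7213 CPM. The 5 beam markers summed to 135 CPM in NC-Foxc2-/- and 318 CPM in control cells, and the 7 endothelium markers to 92.1 and 296 CPM. Their part in the interferon result was not tested.

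Limbal epithelial-like cells had 19 of 31 genes called lower (61.3%) and 0 higher, against 6.54% of all genes lower and 1.17% higher, and all 31 ratios below 1. The median log2 ratio was -1.14, against -0.15 for all genes. Rtp4, a chaperone of membrane receptors, had 17.7 CPM in NC-Foxc2-/- and 77.6 CPM in control cells (ratio 0.228). Oasl2 had 11.3 and 49.5 CPM (ratio 0.228), and Isg15 89.6 and 292 CPM (ratio 0.307). The tetherin gene Bst2 had 50.4 CPM in NC-Foxc2-/- and 117 CPM in control cells (ratio 0.43), and the peptide transporter gene Tap1 19 and 43.5 CPM (ratio 0.436). Psmb8 had 88 and 207 CPM (ratio 0.425), whereas Psmb5 had 200 and 260 CPM, Psmb6 204 and 280 CPM and Psmb7 84.4 and 86.4 CPM.

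The other limbal calls were Ifit1, Ifit3b, Ifi44, Ifi35, Ifih1, Irf7, Usp18, Rsad2, Xaf1, Gbp3, Gbp7, Igtp and Trim30a, with ratios between 0.266 (Trim30a) and 0.495 (Ifih1). Irf1 differed least, with 33.6 CPM in NC-Foxc2-/- and 36 CPM in control cells (ratio 0.934). In this class 32.1% of cells were called doublets. Its 6 erythrocyte markers summed to 114 CPM in NC-Foxc2-/- and 3270 CPM in control cells, and its 11 macrophage markers to 26.6 and 174 CPM. Conjunctival epithelium markers, 5 in all, summed to 81 CPM in NC-Foxc2-/- and 260 CPM in control cells, and 6 smooth muscle markers to 44 and 432 CPM. Their part in the result was not tested. Of the 19 limbal calls, 5 were lost when ratios were scaled to the median gene (Gbp7, Ifih1, Ifit3b, Igtp and Xaf1, between 0.502 and 0.549). At a clustering resolution of 0.4, 5 were lost (Igtp, Psmb8, Rsad2, Usp18 and Xaf1), Rsad2 with a ratio of 1.02.

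Corneal epithelial-like cells had 5 of 24 genes called lower (20.8%) and 0 higher, against 1.95 and 2.24% of all genes, and 23 of 24 ratios below 1. Rtp4 had 8.36 CPM in NC-Foxc2-/- and 34.6 CPM in control cells (ratio 0.241), and Oasl2 3.6 and 14 CPM (ratio 0.257). Irf7 had 9.01 and 24.6 CPM (ratio 0.367), the RNA sensor Ifih1 3.6 and 8.88 CPM (ratio 0.406) and Tap1 8.85 and 18.9 CPM (ratio 0.468). Isg15, with 36.9 CPM in NC-Foxc2-/- and 73.1 CPM in control cells, narrowly missed the rule (ratio 0.504). Psmb9 had the only ratio above 1 (26.2 and 24.6 CPM).

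Melanocyte-like cells had 9 of 24 genes called lower (37.5%) and 1 higher (Oasl2, 4.17%), against 9.99 and 7.15% of all genes. Rsad2 had 4.79 CPM in NC-Foxc2-/- and 73.5 CPM in control cells (ratio 0.0652), and Ifit1 28.8 and 235 CPM (ratio 0.122). Isg15 had 144 and 779 CPM (ratio 0.185), and Ifit3 88.7 and 325 CPM (ratio 0.273). Oasl2 had 59.9 CPM in NC-Foxc2-/- and 22.1 CPM in control cells (ratio 2.72), and Irf1 300 and 166 CPM (ratio 1.81). The class held 64 NC-Foxc2-/- and 183 control cells, and its own markers differed. The 6 melanocyte markers summed to 5129 CPM in NC-Foxc2-/- and 25924 CPM in control cells, and the smooth muscle markers to 451 and 2309 CPM. Their part in the result was not tested.

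Smooth muscle-like cells had 3 of 16 genes called lower (18.8%) and 0 higher, against 1.83 and 1.75% of all genes. Isg15 had 18.3 CPM in NC-Foxc2-/- and 56.7 CPM in control cells (ratio 0.322), Ifit1 7.52 and 29.4 CPM (ratio 0.256) and Ifit3 8.06 and 28.1 CPM (ratio 0.287). In the control library 6 of the 534 cells held 62.3% of the Isg15, 73.6% of the Ifit1 and 65.7% of the Ifit3 UMIs. The Ifit1 ratio was 0.684 at a clustering resolution of 0.4. Irf1, at 127 and 157 CPM, and Bst2, at 95.6 and 103 CPM, were the highest of the set after Ifi27 and were not called.

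Macrophage-like cells split the set, with 5 of 31 genes called higher (16.1%) and 2 lower (6.45%), against 2.13 and 3.38% of all genes. Rsad2 had 242 CPM in NC-Foxc2-/- and 34.1 CPM in control cells, a ratio of 7.09 (5.79 to 8.75). Ifit1 had 127 and 45.8 CPM (ratio 2.76), and Ifit2 21.2 and 8.44 CPM (ratio 2.51). Ifih1 had 46.1 CPM in NC-Foxc2-/- and 20.1 CPM in control cells (ratio 2.29), and Gbp5, which promotes inflammasome assembly, 26.4 and 10.7 CPM (ratio 2.46). The lower calls were Igtp, with 11.3 and 27.3 CPM (ratio 0.416), and Ifit3b, with 5.67 and 11.7 CPM (ratio 0.485). With rebuilt clusters in place of the study's names both lower calls were lost (ratio 0.509 each). Without index cells, which are defined further on, Ifit1 had a ratio of 1.3. Ifit1 is among the genes that choose index cells, so this fall follows in part from the choice. Igtp overlaps Irgm2 on the same strand.

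Few macrophage-like cells held much of the Rsad2 in both libraries, with 48.6% of its UMIs in 7 NC-Foxc2-/- cells and 65.7% in 6 control cells. Rsad2 was higher in both macrophage-like clusters, with 274 CPM in NC-Foxc2-/- and 32.6 CPM in control cells in the larger cluster and 138 and 38.2 CPM in the smaller. Its genomic neighbor Cmpk2 had 14.3 CPM in NC-Foxc2-/- and 3.57 CPM in control cells (ratio 4), and the chemokine Cxcl10 316 and 143 CPM (ratio 2.22). Irf7 ran the other way, with 71.8 CPM in NC-Foxc2-/- and 119 CPM in control cells (ratio 0.606). The class median was 5718 UMIs in the NC-Foxc2-/- and 4268 UMIs in the control library.

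The remaining classes held few calls. NK/T/B cell-like cells had 1 of 17 genes higher (Ifit1, 5.88%) and 0 lower, against 4.29 and 3.79% of all genes. Ifit1 had 83.4 CPM in NC-Foxc2-/- and 37.3 CPM in control cells (ratio 2.24), and 3 cells held 68.7% of the NC-Foxc2-/- UMIs. Schwann cell-like cells had 0 of 28 higher and 1 lower (Irf8, 3.57%), against 2.20 and 1.76%, with 20.9 CPM of Irf8 in NC-Foxc2-/- and 42.7 CPM in control cells. Keratocyte-like cells had 1 of 30 higher (Gbp2, 3.33%) and 0 lower, against 2.28 and 1.25%, with 8.26 CPM of Gbp2 in NC-Foxc2-/- and 3.56 CPM in control cells (ratio 2.32). Retina-like cells had 0 of 2 called, against 6.87% higher and 8.40% lower, and erythrocyte-like cells 0 of 3, against 11.5 and 2.03%.

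Some genes were called in no class. Ifi27, a mitochondrial protein and the only gene of the set with 50 UMIs in every class, had a ratio below 1 in 17 of 17 classes, between 0.527 in corneal epithelial-like and 0.893 in Schwann cell-like cells. It had 461 CPM in NC-Foxc2-/- and 612 CPM in control uveal meshwork, and 500 and 560 CPM in Schwann cell-like cells. Stat2, the factor specific to type I and type III signaling, was above 1 in 10 of 14 classes and its partner Irf9 in 9 of 15. The ADP-ribosyltransferase gene Parp14 was above 1 in 10 of 14 classes, among them endothelial cells (297 and 210 CPM) and macrophage-like cells (98.2 and 52.3 CPM). Psmb9 also had no call. Irf9 overlaps Rnf31 on the same strand, so its counts are uncertain.

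The genes also differed in how their UMIs were shared among the cells of a class. In keratocyte-like cells the top 1% of cells held a median of 28% of the UMIs of an interferon response gene in the NC-Foxc2-/- and 20.2% in the control library, against 12.1 and 10.7% over all genes. In TM-3 the medians were 27.2 and 19.5%, against 15.2 and 12.9% over all genes. In TM-2 they were 9.52 and 9.17%, against 10 and 7.99%, and in endothelial cells 11.8 and 12.4%, against 12.2 and 11.8%. In TM-2 and endothelial cells the median of the set was thus close to that of all genes, though single genes differed. In NC-Foxc2-/- endothelial cells the top 10 cells held 73.2% of the Ifit2, 51.6% of the Ifit1 and 29.1% of the Isg15 UMIs. A gene with few UMIs is also held by few cells. Isg15 in keratocyte-like cells had 60.2% of its UMIs in 26 NC-Foxc2-/- cells and 45.5% in 17 control cells.

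To follow such cells, a cell was counted as a type I index cell when it held at least 10 UMIs summed over Ifit1, Ifit3, Ifit3b and Rsad2, and as a GTPase index cell with at least 10 over Gbp2, Gbp4, Igtp and Iigp1. Type I index cells numbered 566 (5.21%) in the NC-Foxc2-/- and 808 (7.5%) in the control library, and GTPase index cells 464 (4.27%) and 518 (4.81%). Both conditions were met by 190 NC-Foxc2-/- and 187 control cells. A cell with more UMIs passes more easily, so the shares also follow depth. Among control cells 31.5% of conjunctival epithelial-like cells were type I index cells, a class with too few NC-Foxc2-/- cells to compare, and 39 of the 108 control cells with most Isg15 UMIs came from it.

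Type I index cells made up 38.1% of NC-Foxc2-/- and 46.8% of control TM-2 cells, and 24.2 and 29.6% of TM-1 cells. In endothelial cells the shares were 14.2 and 13.5%, in the uveal meshwork 8.78 and 5.76% and in macrophage-like cells 5.65 and 2.29%. They were lower than in the control library in fibroblasts (8.63 and 14.1%), limbal epithelial-like cells (4.05 and 9.63%) and pericyte-like cells (1.69 and 5.82%). In TM-3 they were 1.58 and 1.17%, and in keratocyte-like cells 1.83 and 1.96%. GTPase index cells were most common in endothelial cells, at 29.6% of NC-Foxc2-/- and 35.7% of control cells, and in TM-2, at 11.7 and 17.9%. Without all index cells 53 of the called pairs still had 50 UMIs, and 42 of the 53 were still called. Gbp3 in TM-3 then had a ratio of 0.909, Gbp2 in keratocyte-like cells 1.2 and Irgm1 in TM-1 1.87, while Irgm1 in TM-3 had 2.55. Calls lost in the same way were Ifit1 (0.511), Irf7 (0.54) and Psmb8 (0.536) in pericyte-like cells and Ifit3 (0.727) and Rtp4 (0.603) in melanocyte-like cells. Ifit1, Ifit3 and Gbp2 are among the genes that choose index cells, so changes in their ratios follow in part from the choice.

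**Figure D5:**
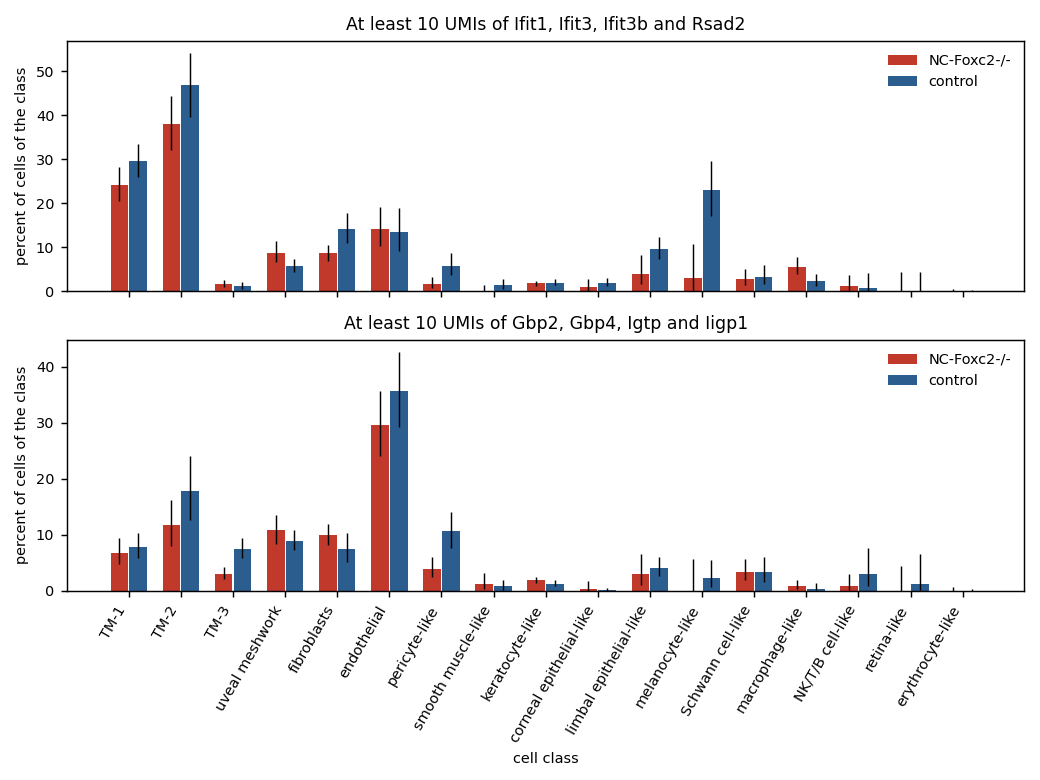
Percent of the cells of each class that were index cells, type I in one panel and GTPase in the other, NC-Foxc2-/- bars left of control bars with exact binomial 95% intervals. TM-2 leads the type I panel (38.1 and 46.8%) and endothelial cells the GTPase panel (29.6 and 35.7%).

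The other genes of the set, which did not choose the cells, were read in the type I index cells as a description. In keratocyte-like cells 24 of 25 were at least 2-fold higher in NC-Foxc2-/- index cells than in the other cells, with a median ratio of 6.23, against 5.38% of all genes. In control index cells 21 of 25 were, with a median of 3.5, against 4.02% of all genes. Usp18 in the 46 NC-Foxc2-/- index cells had 53.8 CPM, against 1.74 CPM in the other keratocyte-like cells, Isg15 324 against 13.5 CPM and Irf7 153 against 10 CPM. Irgm1 had 273 against 65 CPM and Ifi27 407 against 387 CPM. Most genes of the set were thus high in the rare keratocyte-like index cells, and Ifi27 was close to level. In TM-2 5 of 25 genes were 2-fold higher in NC-Foxc2-/- and 8 of 24 in control index cells, against 1.18 and 1.38% of all genes, with median ratios of 1.58 and 1.77. In endothelial cells 24 of 29 genes were 2-fold higher in NC-Foxc2-/- and 0 of 28 in control index cells, against 4.78 and 3.38% of all genes. The control index cells were deep (median of 21171 UMIs, against 7882 UMIs for the class).

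Of the other genes of the pathway, 69 of 71 listed had a row. Interferon RNA itself was scarce. Ifnb1, the beta interferon gene, had 74 UMIs in 26 NC-Foxc2-/- cells and 34 UMIs in 6 control cells, of which 70 and 34 UMIs lay in macrophage-like cells. Ifng had 8 UMIs in the NC-Foxc2-/- and 14 in the control library. The type III genes Ifnl2 and Ifnl3 had 0 UMIs in the NC-Foxc2-/- library, and in the control library 237 and 306 UMIs, each from 4 cells. A count of 0 allows up to 3 UMIs in that library, and no fold is given for a signal of 4 cells.

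Of the receptor genes with 50 UMIs in a class, 1 gene was called, lower and in melanocyte-like cells only. In that class 9.99% of all genes were called lower. Ifnar2 had 125 CPM in NC-Foxc2-/- and 164 CPM in control TM-1 and 126 and 244 CPM in pericyte-like cells (ratio 0.516). Ifnar1 had 63.1 and 62.7 CPM in macrophage-like cells and Ifngr1 766 and 708 CPM in the NK/T/B cell-like class. Ifngr2 had 142 CPM in NC-Foxc2-/- and 131 CPM in control macrophage-like cells. Il10rb, a chain shared by type III interferon and interleukin receptors, was called lower in melanocyte-like cells (50.3 and 149 CPM, ratio 0.338), and Ifnlr1 had at most 14 UMIs in any class of either library.

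Cxcl9, a chemokine induced mainly by interferon gamma, was called higher in TM-1 (23.8 CPM in NC-Foxc2-/- and 10.5 CPM in control cells), TM-2 (49 and 18.6 CPM), TM-3 (11.3 and 0.959 CPM), endothelial cells (39.4 and 11.3 CPM) and keratocyte-like cells (5.32 and 2.48 CPM). It was called lower in fibroblasts, with 58 CPM in NC-Foxc2-/- and 334 CPM in control cells (ratio 0.173), as was Cxcl10, with 395 and 1043 CPM (ratio 0.378). Cxcl10 was called higher in macrophage-like, keratocyte-like (10.4 and 5.14 CPM) and NK/T/B cell-like cells (61.3 and 25.9 CPM), and lower in melanocyte-like cells (113 and 319 CPM). It was also lower in pericyte-like cells, with 78 and 365 CPM (ratio 0.214), beside the GTPase genes Ifi47 (33.4 and 158 CPM) and Gbp6 (8.67 and 31.5 CPM). Of 41 pathway genes with 50 UMIs in pericyte-like cells, 0 were called higher and 5 lower, against 5.94 and 3.72% of all genes. In limbal epithelial-like cells 0 of 53 were called higher and 12 lower, against 1.17 and 6.54%. In fibroblasts 4 of 49 were called higher and 5 lower, against 4.84 and 6.09%. In endothelial cells 4 of 46 (Cxcl9, Tmem173, Tlr3 and Sp100) were called higher and 0 lower, against 3.09 and 4.03%. Jak2, the kinase of the gamma receptor, was called higher in TM-2 (146 and 71.3 CPM), fibroblasts (69.6 and 34 CPM) and NK/T/B cell-like cells (155 and 72.9 CPM).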

How the data were processed

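Anterior segment cells were sequenced in 1 pooled NC-Foxc2-/- and 1 pooled control library. The authors aligned reads to mm10 and deposited UMI counts per gene and cell, made with Cell Ranger 4.0.0 as listed in the submitters' processing notes, and the filtered matrices were used as deposited. Cells with over 8% mitochondrial UMIs were left out. Cells were clustered with scanpy 1.11.5 (15 principal components, 25 neighbors, resolution 0.8) after the interferon genes had been removed from the variable genes, and clusters were named from fixed marker lists. Names of meshwork, fibroblast and endothelial cells were taken from the study's cluster lists by matching normalized values within 0.55 of the last digit. Called doublets, 4.77% of NC-Foxc2-/- and 3.81% of control cells, were kept in the main values.

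UMIs of a gene were summed per class and library and divided by the class total (CPM), with exact Poisson intervals, and ratios with exact conditional binomial (Clopper-Pearson) intervals, from scipy 1.17.1. Cells of 1 library are not replicates, so no p-value was computed. UMIs summed to 94644512 in the NC-Foxc2-/- and 119599692 in the control library. Levels are per 1000000 UMIs of a 3′ assay and carry no length correction. The genes of the set and the lists of other genes were chosen with earlier results of these data known. All genes of the set are accounted for, and single values are given where a gene had 50 UMIs in a class. Other pathway genes were named by the call with the 3 highest and 3 lowest ratios in a class, with all receptors and proteasome counterparts, and 1 of them, part of the list's counts, is not reported here by name. Gene positions are those of GENCODE on GRCm38. The calling script was tested on simulated data.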

Additional observations from a re-analysis of the deposited data

Results flagged for a closer look

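Of the interferon response genes, 7 were called higher in some classes and lower in others. None of these differences between classes was tested, and each class has 1 library per condition.

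Ifit1 had ratios of NC-Foxc2-/- over control of 3.78 in endothelial, 2.76 in macrophage-like and 2.24 in NK/T/B cell-like cells. Its ratios were 0.416 in limbal epithelial-like, 0.332 in pericyte-like, 0.256 in smooth muscle-like and 0.122 in melanocyte-like cells. Ifit3 followed it, with 2.08 in endothelial cells and 0.273 in melanocyte-like, 0.212 in pericyte-like and 0.287 in smooth muscle-like cells. Rsad2 had 7.09 in macrophage-like cells and 2.16 in the uveal meshwork, and 0.449 in limbal epithelial-like and 0.0652 in melanocyte-like cells.

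Ifih1 had 2.29 in macrophage-like cells, and 0.406 in corneal and 0.495 in limbal epithelial-like cells. Oasl2 had 2.72 in melanocyte-like cells, and 0.257 in corneal epithelial-like, 0.228 in limbal epithelial-like and 0.319 in pericyte-like cells. Gbp3 had 2.22 in TM-3, and 0.311 in limbal epithelial-like and 0.356 in pericyte-like cells. Gbp5 had 2.46 in macrophage-like and 0.28 in pericyte-like cells. Pericyte-like cells were called lower for 5 of the 7 genes, limbal epithelial-like cells for 5, and endothelial or macrophage-like cells were called higher for 5. Of all genes 3.72 and 6.54% were called lower in the first pair of classes, and 3.09 and 2.13% higher in the second. The 7 genes were chosen for having both kinds of call, so this tally follows in part from the choice. The share of all genes called in both directions was not computed.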

How the results depend on the processing

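Most calls kept their direction and their side of the fold rule. Of the 72 calls, 66 were kept when ratios were scaled to the median gene. Among pairs that still had 50 UMIs, 60 of 67 were kept at a clustering resolution of 0.4, 68 of 71 without the study's names and 42 of 53 without index cells. Index cells are chosen by genes of the set, so leaving them out is no independent check of those genes. The number of pairs called higher, 19, became 29 at a minimum of 20 UMIs, 48 at a fold of 1.5 and 12 without index cells. The number called lower, 53, became 26 after thinning to 1000 UMIs, where fewer pairs keep 50 UMIs, and 112 at a fold of 1.5. The genes highest in endothelial cells, 11, became 6 without index cells and 7 without the 22 NC-Foxc2-/- ECs, whose removal was chosen after seeing the data, as was the use of the deeper macrophage-like cluster alone. Gbp3 in TM-3 reversed to 0.909 without index cells and Rsad2 in limbal epithelial-like cells to 1.02 at resolution 0.4, and the cause was not tested. Irgm1 in fibroblasts had 1.86 after thinning.

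In TM-2 the top 10 cells held a median of 25% of UMIs in the NC-Foxc2-/- and 29.9% in the control library. Type I index cells numbered 1049 and 1436 at a minimum of 5 UMIs and 237 and 363 at 20, and GTPase index cells 1113 and 1353 at 5 and 118 and 121 at 20 (NC-Foxc2-/- and control). An Isg15 UMI was found at 2000 UMIs in 77.5% of NC-Foxc2-/- and 82% of control TM-2 cells and in 46.7 and 66.8% of pericyte-like cells.

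No paired analysis was possible because each condition has 1 library. Depth limited the rarer genes: Gbp4 and Ifi44 reached 50 UMIs in 1 and 2 of the 17 classes.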

Other observations

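The conjunctival epithelial-like class, with 27 NC-Foxc2-/- and 460 control cells, entered no comparison. Isg15 had 766 CPM in its NC-Foxc2-/- and 719 CPM in its control cells, Ifit1 84.6 and 344 CPM, and Psmb8 275 and 253 CPM. In the corneal endothelial-like class, with 9 NC-Foxc2-/- and 170 control cells, Ifi27 had 575 and 1280 CPM.

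Erythrocyte-like cells, of whose UMIs 94.7% in the NC-Foxc2-/- and 95.6% in the control library were globin, held Rsad2 and Isg15 with little Ifit1 or Ifit3. Rsad2 had 230 UMIs in 130 NC-Foxc2-/- cells and 212 UMIs in 140 control cells, with at most 7 and 5 UMIs in a cell. Over all erythrocyte-like cells Isg15 had 208 UMIs in NC-Foxc2-/- and 444 UMIs in control cells, Ifi27 35 and 78, Ifit1 3 and 5 and Ifit3 2 and 5 UMIs.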
